A study of Mus musculus with 6 samples.

Results

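Galnt6 and the enzymes of mucin-type O-glycosylation were followed in whole ovaries of wild-type and Bnc1-mutant mice. The group holds 10 genes of the 44788 listed in the count table, picked by symbol: the GalNAc-transferases Galnt1, Galnt2, Galnt3, Galnt4, Galnt6, Galnt7, Galnt12 and Galnt14, the core 1 synthase C1galt1 and the core 2 enzyme Gcnt1. They were chosen with the genotype difference of these ovaries already known, so their levels and differences are given as a description and carry no test. RNA-seq libraries came from 3 Bnc1+/+ ovary samples (replicates 1, 4 and 7) and 3 Bnc1tr/tr ovary samples (replicates 1, 2 and 3), all C57BL/6 J and aged 8 weeks. Bnc1tr/tr mice are homozygous for a short frameshift deletion in Bnc1, a zinc finger transcription factor gene, which truncates the protein in every cell that expresses it. The estrous stage of these mice and the number of mice behind a sample are not given in the sources used here, so p values measure only the spread between these samples.

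Mucin-type O-glycosylation takes place in the Golgi. A polypeptide GalNAc-transferase (GALNT) moves N-acetylgalactosamine from UDP-GalNAc to a serine or threonine, and the family members differ in the peptides they prefer. C1GALT1, which needs its chaperone COSMC (C1galt1c1), then adds galactose to make core 1, GCNT enzymes branch it to core 2, and sialyltransferases cap the chains. In the ovary such chains are carried by proteins of epithelia, endothelium and the egg coat.

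GALNT6 and GALNT3 are close relatives within this family. Galnt6 spans 100691813 to 100729376 of chromosome 15 (GRCm38, minus strand), and its longest coding transcript in GENCODE M21 has 12 exons and 622 codons. Galnt3 spans 66082766 to 66124994 of chromosome 2 (minus strand) and has 633 codons. Over 28 pairs of the 8 GalNAc-transferases, between 57.9% and 66.8% of aligned coding bases were identical, and Galnt3 with Galnt6 was the pair with 66.8%. The longest identical run in any pair was 23 bases, between Galnt4 and Galnt6. Each of the 8 coding sequences held the 4 codons of the catalytic WGGE motif 1 time, at codon 379 in Galnt6. The stretches around it are shown for 7 members, written 5′ to 3′ with the WGGE codons in capitals, to let the similarity of these copies be seen:
Galnt6: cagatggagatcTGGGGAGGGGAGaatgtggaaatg
Galnt3: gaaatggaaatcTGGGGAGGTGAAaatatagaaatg
Galnt2: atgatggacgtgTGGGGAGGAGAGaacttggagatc
Galnt14: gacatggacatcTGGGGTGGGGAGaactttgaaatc
Galnt4: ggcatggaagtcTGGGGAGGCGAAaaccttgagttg
Galnt12: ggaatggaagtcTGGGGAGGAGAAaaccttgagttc
Galnt7: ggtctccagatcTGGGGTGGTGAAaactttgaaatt
All 7 encode the same motif with different bases around and within it.

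Gene counts summed to 25247770 to 34406296 in an ovary, and 19423 genes passed edgeR's filterByExpr function. Expression is given as CPM, the reads of a gene scaled to library size with TMM factors. Of the genes tested, 1372 (7.06%) differed between the genotypes at a Benjamini-Hochberg adjusted p under 0.05 in edgeR's quasi-likelihood test, 559 (2.88%) higher and 813 (4.19%) lower in Bnc1tr/tr ovaries; with library size as the only scaling, 616 of 1728 (35.6%) were lower, against 59.3%. The median log2 fold change of the genes tested was 0.018 with TMM and 0.12 with library size alone. Bnc1 itself was at 13.9, 13.4 and 13.1 CPM in Bnc1+/+ and 18.7, 13.7 and 11.5 CPM in Bnc1tr/tr ovaries, and counts per gene do not show the deletion. Leaving out Bnc1+/+ replicate 4 took the number of genes called from 1372 to 320. The summed level of 8 oviduct markers stood apart in Bnc1+/+ replicate 1 (151 CPM) and Bnc1tr/tr replicate 3 (520 CPM), against 22.6 to 46.0 CPM in the other 4 ovaries, so the results were also computed without both of these ovaries.

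Galnt6 was the member with the largest difference. It was counted 177, 249 and 214 times in Bnc1+/+ replicates 1, 4 and 7, or 6.58, 7.52 and 7.38 CPM. In Bnc1tr/tr replicates 1, 2 and 3 it was counted 1887, 1138 and 1667 times, or 67.1, 43.8 and 58.8 CPM. Every Bnc1tr/tr ovary lay above every Bnc1+/+ ovary, and the lowest of them, replicate 2, was still several times the highest Bnc1+/+ value. The mean went from 7.16 ± 0.508 to 56.6 ± 11.8 CPM (SD, n = 3), 7.90 times as high, with a log2 fold change of 2.98 (standard error, SE, 0.17). Only 61 of the genes tested, Galnt6 included, had a log2 fold change this high. Across 13 other settings of scaling, filter, tool and ovaries the log2 fold change of Galnt6 lay between 2.84 and 3.13. Without both ovaries with high oviduct markers the log2 fold change of Galnt6 was 2.88. An antisense transcript, Galnt6os, overlaps Galnt6 and has a row of its own in the table, with no more than 1 count in any ovary. The strand setting of the counts is not given, so how reads in the shared span were assigned is not known.

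**Figure D1:**
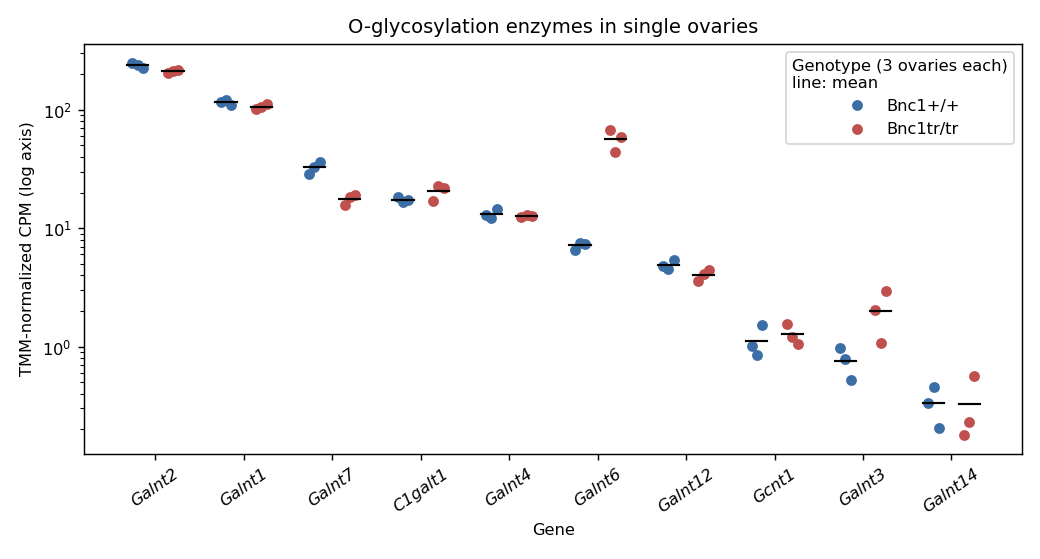
TMM-normalized CPM (log axis) of the 10 enzymes in each ovary, with points for the 3 Bnc1+/+ (blue) and 3 Bnc1tr/tr (red) ovaries and a line at each mean. Galnt6 goes from about 7.16 to 56.6 CPM with no overlap and Galnt7 from 32.6 to 17.8 CPM, and heights of different genes are not comparable because CPM does not correct for gene length.

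The Galnt6 start used in RefSeq has its promoter at chr15:100729327-100729626 (GRCm38.p6, minus strand), from 250 bases before to 50 bases after the start. It is shown because Galnt6 differed most, with capitals for the letters GGGCGG, the core of a GC box, on either strand:
Galnt6 promoter: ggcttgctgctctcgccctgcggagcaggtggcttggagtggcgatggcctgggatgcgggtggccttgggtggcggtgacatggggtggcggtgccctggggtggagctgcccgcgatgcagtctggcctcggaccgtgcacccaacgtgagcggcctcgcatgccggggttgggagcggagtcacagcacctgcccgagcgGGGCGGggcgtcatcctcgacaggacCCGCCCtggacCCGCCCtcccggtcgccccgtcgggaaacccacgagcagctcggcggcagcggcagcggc
The window held 31 CG dinucleotides, against a median of 7 over 32851 promoters of the same length, and none of TATAAA or CCAAT on either strand. GGGCGG was present in 35.7% of all promoters, TATAAA in 13.6% and CCAAT in 37.4%. RefSeq promoters were found for 6 of the 10 members, 9 windows in all, and 5 windows of 5 members held GGGCGG: those of C1galt1, Galnt3, Galnt6, Galnt7 and Galnt14. Genes on both sides of the genotype difference thus share these letters. A second, downstream Galnt6 start held none of the 3 motifs.

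Galnt3, the closest relative of Galnt6, was scarce. It was counted 26, 26 and 15 times in Bnc1+/+ ovaries, or 0.967, 0.786 and 0.517 CPM, and 57, 28 and 83 times in Bnc1tr/tr ovaries, or 2.03, 1.08 and 2.93 CPM. The genotypes did not overlap, although Bnc1tr/tr replicate 2 was close to Bnc1+/+ replicate 1. The log2 fold change was 1.41 (SE 0.42) and lay between 1.04 and 1.71 over the 13 other settings. In the Bnc1tr/tr ovaries replicate 2 held the lowest value of both Galnt3 and Galnt6, while the highest was replicate 3 for Galnt3 and replicate 1 for Galnt6.

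Galnt7 stood on the other side. Its enzyme prefers peptides that already carry a GalNAc residue, so it fills in sites after other family members have started. Its level was 28.6, 33.0 and 36.2 CPM in Bnc1+/+ and 15.7, 18.5 and 19.2 CPM in Bnc1tr/tr ovaries, from 441 or more reads in each. The groups did not overlap, and the mean was 0.546 times as high in Bnc1tr/tr, 32.6 ± 3.81 against 17.8 ± 1.87 CPM (SD, n = 3). The log2 fold change of Galnt7 was -0.87 (SE 0.12), between -1.03 and -0.77 over the 13 other settings.

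Galnt1 and Galnt2 encode the broadly expressed, broad-specificity transferases of the family. Galnt2 was at 251, 238 and 224 CPM in Bnc1+/+ and 206, 213 and 216 CPM in Bnc1tr/tr ovaries, which did not overlap. Galnt1 was at 117, 120 and 111 CPM in Bnc1+/+ and 102, 106 and 111 CPM in Bnc1tr/tr ovaries, where the highest Bnc1tr/tr value lay above the lowest Bnc1+/+ value. Their log2 fold changes were -0.17 (SE 0.080) for Galnt2 and -0.12 (SE 0.077) for Galnt1. With library size alone these shrank to -0.066 and -0.022, the setting in which the median gene moved up.

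The remaining transferases differed little. Galnt4, whose enzyme like that of Galnt12 acts on glycopeptides as well as bare peptides, was at 12.8, 12.1 and 14.5 CPM in Bnc1+/+ and 12.4, 12.9 and 12.8 CPM in Bnc1tr/tr ovaries. The log2 fold change of Galnt4, -0.047 (SE 0.11), ran from -0.11 to 0.051 over the other settings. Galnt4 is a gene of 1 exon that lies inside the span of Poc1b on the same strand, so reads in the shared span may have been divided between them. Galnt12 was at 4.76, 4.50 and 5.38 CPM in Bnc1+/+ and 3.56, 4.08 and 4.48 CPM in Bnc1tr/tr ovaries. The closest Galnt12 values of the genotypes nearly touched, and its log2 fold change was -0.27 (SE 0.18). Galnt14, the relative of Galnt2, had 9, 15 and 6 reads in Bnc1+/+ and 5, 6 and 16 reads in Bnc1tr/tr ovaries and was the member that did not pass the filter.

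The core enzymes C1galt1 and Gcnt1 overlapped between the genotypes. C1galt1 was at 18.2, 16.7 and 17.4 CPM in Bnc1+/+ and 17.04, 22.6 and 22.0 CPM in Bnc1tr/tr ovaries, with a log2 fold change of 0.24 (SE 0.13). Bnc1tr/tr replicate 1, the ovary with the highest Galnt6, was the one with C1galt1 at the Bnc1+/+ level. Gcnt1 was counted 27, 28 and 44 times in Bnc1+/+ and 44, 31 and 30 times in Bnc1tr/tr ovaries, a log2 fold change of 0.18 (SE 0.31) that fell to 0.0024 in 1 of the other settings. The standard error of Gcnt1 was larger than its estimate.

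**Figure D2:**
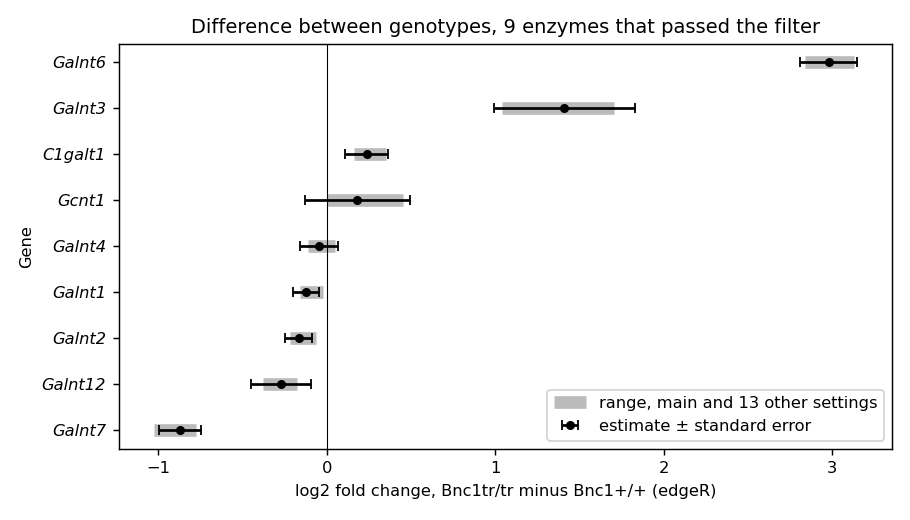
Estimated log2 fold change (Bnc1tr/tr minus Bnc1+/+, edgeR) of the 9 members that passed the filter, with points and bars for the estimate and its standard error and grey bands for the range over all settings. Galnt6 is at 2.98 and Galnt7 at -0.87. The bands of all members but Galnt4 stay on 1 side of 0, that of Gcnt1 reaching down to 0.0024.

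Counted over the 9 members tested, Galnt6 was among the genes called higher and Galnt7 among those called lower, and 7 were not called, where 7.06% of all genes tested were called. The values of 5 members did not overlap between the genotypes (Galnt2, Galnt3, Galnt6, Galnt7 and Galnt12), where this was so of 30.8% of all genes tested. The number of members called was 1 without Bnc1+/+ replicate 4, 3 with DESeq2 and without Bnc1tr/tr replicate 2, and 2 in the other settings. These counts come from the contrast on which the members were chosen, so nothing is read from them. The median log2 fold change of the 9 was -0.047.

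Spread within a genotype does not use the difference between the genotypes. For Galnt6 the coefficient of variation was 7.10% among Bnc1+/+ ovaries, where counting error alone gives 6.85%, and 20.9% among Bnc1tr/tr ovaries, where counting error gives 2.53%. Counting error is smaller in the Bnc1tr/tr ovaries because more Galnt6 reads were counted there, and whether the spread differs between the genotypes was not tested. For Galnt7 the values were 11.7% and 10.5%, above their counting error of 3.21% and 4.52%. Galnt4 in Bnc1tr/tr ovaries, at 1.93%, and C1galt1 in Bnc1+/+ ovaries, at 4.22%, varied no more than counting error, which was 5.35% and 4.40%. For the scarce genes Galnt3, Galnt14 and Gcnt1 the coefficient of variation lay between 20.7% and 64.5%, where counting error gives 13.4% to 33.3%.

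Levels of different genes were compared as CPM per kb of the summed exons of a gene. In Bnc1+/+ ovaries Galnt2 came first at 55.5 ± 3.14 CPM per kb, then Galnt1 at 21.0 ± 0.841 and Galnt7 at 6.20 ± 0.726 CPM per kb (SD, n = 3). C1galt1 and Galnt4 followed at 2.86 ± 0.121 and 2.58 ± 0.233 CPM per kb and overlapped. Galnt12 and Galnt6 came next at 2.13 ± 0.197 and 1.85 ± 0.131 CPM per kb. Gcnt1 and Galnt3 overlapped at 0.195 ± 0.0610 and 0.173 ± 0.0517 CPM per kb, and Galnt14 was last at 0.0562 ± 0.0209 CPM per kb. In Bnc1tr/tr ovaries Galnt6 had rank 3 among the 10 members, at 14.6 ± 3.05 CPM per kb, below Galnt1 at 19.3 ± 0.859 and above Galnt7 at 3.39 ± 0.357 CPM per kb (SD, n = 3), without overlap with either. There Galnt7 overlapped C1galt1, and Galnt3 overlapped Gcnt1.

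Over all 19 GalNAc-transferase genes, members and others, the summed level came to 144, 154 and 161 CPM per kb in Bnc1+/+ and 149, 135 and 139 CPM per kb in Bnc1tr/tr ovaries, which overlapped. The share of Galnt6 in this sum was 1.18%, 1.26% and 1.18% in Bnc1+/+ ovaries, against 11.7%, 8.37% and 10.9% in Bnc1tr/tr. Its rank among the 19 went from 10 to 4. Galnt7 went from 4.04 ± 0.252% to 2.42 ± 0.355% and Galnt2, the leading gene in both genotypes, from 36.3 ± 4.08% to 35.2 ± 2.46% (SD, n = 3). With the length of the longest coding transcript in place of all exons, the mean share of Galnt6 was 1.01% in Bnc1+/+ ovaries against 8.72% in Bnc1tr/tr, and its rank went from 11 to 5.

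**Figure D3:**
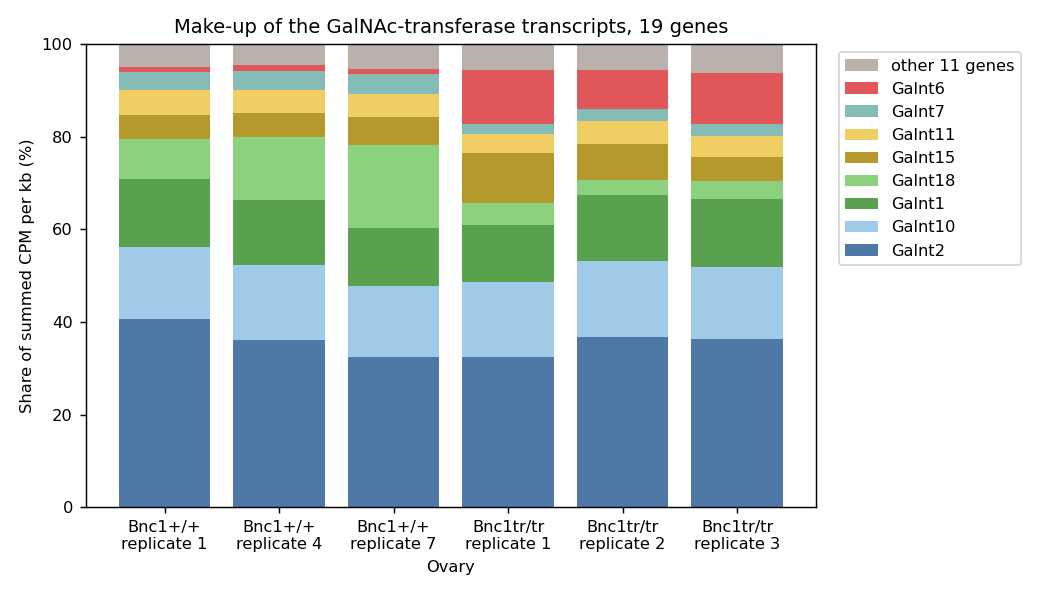
Share (%) of each GalNAc-transferase gene in the summed CPM per kb of 19 such genes, 1 stacked bar for each ovary, with the 11 genes not named in the legend pooled in grey. The red Galnt6 band is near 1.2% in the 3 Bnc1+/+ ovaries and 8.37% to 11.7% in the 3 Bnc1tr/tr ovaries, and the light green Galnt18 band is narrower in the latter.

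Of the 11 other GalNAc-transferase genes, 7 passed the filter, 1 rose, 1 fell and 5 were not called. Galnt9 rose from 1.04, 0.967 and 0.690 CPM to 3.95, 2.27 and 3.07 CPM, a log2 fold change of 1.78 (SE 0.30, edgeR adjusted p = 0.015, over all genes tested). Galnt18 was at 31.9, 53.7 and 75.0 CPM in Bnc1+/+, a wide spread, and at 17.5, 11.3 and 13.7 CPM in Bnc1tr/tr ovaries. It fell by 1.92 on the log2 scale (SE 0.31, edgeR adjusted p = 0.012). Both enzymes belong to the brain-type branch of the family. Neither was past the threshold without Bnc1+/+ replicate 4 (edgeR adjusted p = 0.083 and 0.067), and Galnt9 was not without replicate 7 (edgeR adjusted p = 0.068) or without both ovaries with high oviduct markers (edgeR adjusted p = 0.091). Galnt10, the relative of Galnt7 and the highest of these genes in mean CPM over all 6 ovaries, was at 134 to 149 CPM in Bnc1+/+ and 129 to 144 CPM in Bnc1tr/tr ovaries, a log2 fold change of -0.093 (edgeR adjusted p = 0.55).

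No gene was called in either list of enzymes that act after the first sugar. None of 4 tested for core assembly and extension and none of 7 sialyltransferases and sulfotransferases passed the adjusted threshold in edgeR's test. Gcnt2, which is in neither list, is described under other observations. At an unadjusted p under 0.05 edgeR gave 1 gene of each list, and DESeq2 called 0 of both after adjustment. The gene with the highest mean CPM of the first list over all 6 ovaries, B4galt5, which makes a galactose linkage, had a log2 fold change of 0.064 (SE 0.084, edgeR adjusted p = 0.69). That of the second, the sialyltransferase St3gal4, was 0.22 (SE 0.19, edgeR adjusted p = 0.53). C1galt1c1, named for its role as the chaperone of C1GALT1 after its values were seen, was at 11.9, 16.3 and 13.7 CPM in Bnc1+/+ and 9.28, 10.9 and 11.1 CPM in Bnc1tr/tr ovaries. These did not overlap, as was so of 30.8% of all genes tested. Its log2 fold change was -0.42 (SE 0.15, edgeR adjusted p = 0.14), and it was not called. The unadjusted p was 0.023 in edgeR, and nothing is read from it because the gene was picked after its values were seen.

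Of 12 genes of proteins with mucin-type chains, 11 passed the filter, 2 rose and 2 fell. The membrane mucin genes Muc4 and Muc20 rose from low levels. They overlap on opposite strands of chromosome 16, and the strand setting of the counts is not given. Reads in the shared span may thus have gone to either gene, and the 2 calls may not be separate. Muc4 was counted 9, 16 and 9 times in Bnc1+/+ and 58, 35 and 104 times in Bnc1tr/tr ovaries, a log2 fold change of 2.63 (SE 0.44, edgeR adjusted p = 0.015). Muc20 was counted 14, 7 and 6 times in Bnc1+/+ and 72, 43 and 84 times in Bnc1tr/tr ovaries, a log2 fold change of 2.94 (SE 0.43, edgeR adjusted p = 0.0089). The gel-forming mucin gene Muc5b fell by 2.26 on the log2 scale (SE 0.50, edgeR adjusted p = 0.038), from 31, 118 and 82 reads to 8, 18 and 17. Cd34, a sialomucin of endothelium and progenitor cells, fell by 0.52 on the log2 scale (SE 0.10, edgeR adjusted p = 0.025), from 144 to 151 CPM to 88.6 to 109 CPM. Podxl, which had the highest mean CPM of the list over all 6 ovaries, had a log2 fold change of 0.11 (edgeR adjusted p = 0.67). Without Bnc1+/+ replicate 4 none of these 4 calls held, with an adjusted p of 0.072 for Muc4, 0.071 for Muc20, 0.16 for Muc5b and 0.11 for Cd34 in edgeR. Without Bnc1+/+ replicate 7 the values were 0.073, 0.0502, 0.12 and 0.076, without Bnc1+/+ replicate 1 Muc4 and Cd34 were at 0.054 and 0.077, and Muc5b and Cd34 also missed the threshold without Bnc1tr/tr replicate 3 (edgeR adjusted p = 0.097 and 0.053). Muc5b was short of it too without Bnc1tr/tr replicate 1 or 2 (edgeR adjusted p = 0.083 and 0.061) and with limma-voom (adjusted p = 0.063). Without both ovaries with high oviduct markers Muc4, Muc5b and Cd34 were not called (edgeR adjusted p = 0.088, 0.054 and 0.14), and the highest Muc4 count, 104, was in Bnc1tr/tr replicate 3, the ovary with the oviduct sum of 520 CPM.

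Among 10 genes that start other kinds of O-linked chain, 1 fell and 9 were not called. Xylt1, whose enzyme begins the chains of proteoglycans with xylose, fell from 15.7, 13.1 and 18.0 CPM to 5.51, 4.85 and 4.65 CPM. Its log2 fold change was -1.64 (SE 0.16, edgeR adjusted p = 0.0024), and it was called in all 13 other settings. The O-GlcNAc transferase gene Ogt, the highest of this list in mean CPM over all 6 ovaries, had a log2 fold change of -0.30 (SE 0.095, edgeR adjusted p = 0.11). Over the 5 lists, 39 of 47 genes were tested, 3 were called higher and 4 lower, where 2.88% and 4.19% of all genes were. Their median log2 fold change was -0.055, against 0.018 over all genes.

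**Figure D4:**
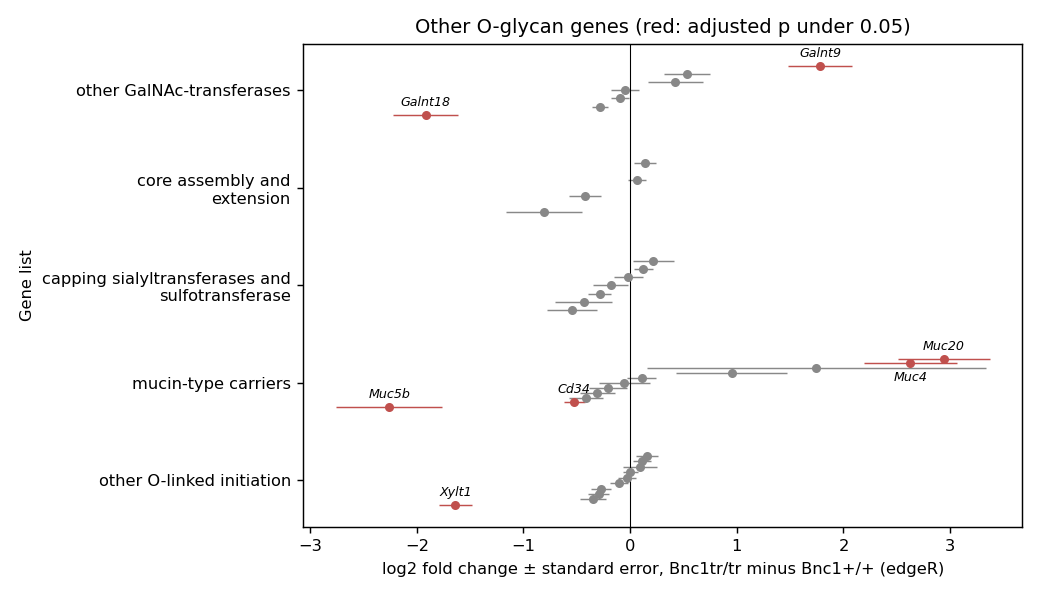
Estimated log2 fold change with its standard error (Bnc1tr/tr minus Bnc1+/+, edgeR) of the 39 tested genes in 5 lists of other O-glycan genes, in red where the adjusted p was under 0.05. Galnt9, Muc4 and Muc20 lie to the right of 0, Galnt18, Muc5b, Cd34 and Xylt1 to the left, and the other 32 genes are grey.

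The profile of Galnt6 over the 6 ovaries was compared with 16752 genes. Likeness was the root mean square difference of log2 CPM, each gene centred on its own mean. The most alike was Elf3, an ETS transcription factor gene of epithelial cells, at 0.111 log2 units, with 5.32, 5.71 and 4.90 CPM in Bnc1+/+ and 52.5, 33.0 and 50.3 CPM in Bnc1tr/tr ovaries. As with Galnt6, Bnc1tr/tr replicate 2 held the lowest of the 3 high values, and this was so of all 5 genes. They were picked for their likeness over these same ovaries, so this shared low value also follows from the way they were found. Of the Bnc1tr/tr ovaries replicate 2 also had the lowest sums of oocyte, granulosa and red blood cell markers, 660, 3494 and 52.5 CPM. Its sum of corpus luteum markers, 12454 CPM, was the highest of the 3. So were its sums of theca (3343 CPM), stromal (3755 CPM), surface epithelium (369 CPM), macrophage (414 CPM) and lymphocyte (10.4 CPM) markers. Its endothelial, oviduct and adipocyte sums lay between those of the other Bnc1tr/tr ovaries. Whether any of these sums bears on Galnt6 was not tested. After Elf3 the most alike were Sost (sclerostin, a secreted Wnt antagonist) at 0.217, Isl2 (a LIM homeodomain factor) at 0.220, 2510049J12Rik at 0.262 and Tgm1 (the transglutaminase of cornified epithelium) at 0.279 log2 units. Each was higher in the Bnc1tr/tr ovaries, with log2 fold changes from 2.86 for Tgm1 to 3.38 for 2510049J12Rik. A profile over 6 ovaries of 2 genotypes is mostly the genotype difference itself, so these genes share that difference by the way they were found.

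**Figure D5:**
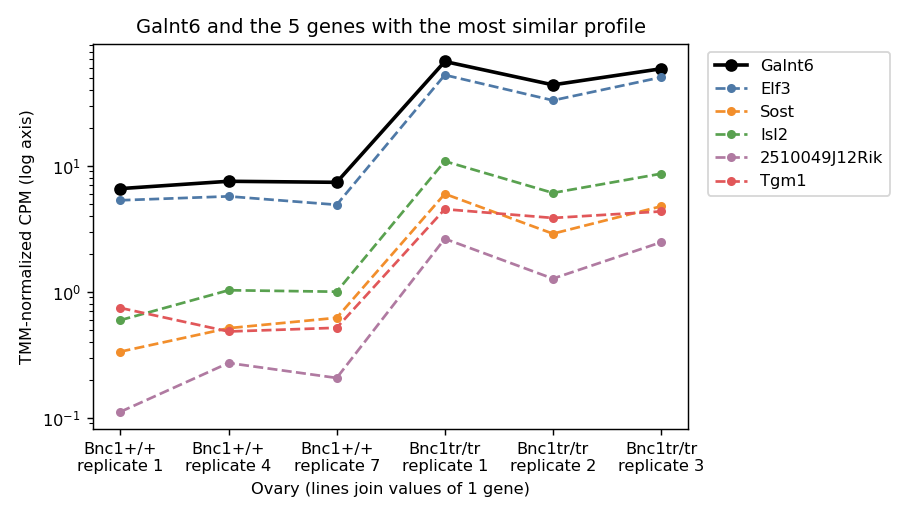
TMM-normalized CPM (log axis) of Galnt6 (black) and the 5 genes with the most similar profile in each of the 6 ovaries, with lines joining the values of 1 gene. All 6 genes are higher in the 3 Bnc1tr/tr ovaries, and Elf3 runs just below Galnt6, between 4.90 and 52.5 CPM.

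Markers of some cell types moved with the genotype beside Galnt6. All 10 oocyte, 8 granulosa and 8 corpus luteum markers passed the filter. So did every marker of the other lists, so passing it does not bear on the tissue label. Of the corpus luteum markers, which include the LH receptor gene Lhcgr, 7 of 8 were called lower, and their summed level was 22620 to 26418 CPM in Bnc1+/+ and 6953 to 12454 CPM in Bnc1tr/tr ovaries. Of 5 endothelial markers, 4 were called lower, with sums of 440 to 554 and 278 to 322 CPM. Of 10 oocyte markers, 3 were called higher, with sums of 503 to 656 and 660 to 1047 CPM. The other 7 were not called, 2 of the 10 had a negative log2 fold change, and 6 did not overlap between the genotypes. Over all genes tested, 2.88% were called higher and 4.19% lower, and 30.8% did not overlap. In a bulk sample fewer cells of a type and less RNA per cell cannot be told apart, and the part of these shifts in the values of Galnt6, Galnt7, Galnt18, Cd34 and Xylt1 was not tested. The sum of 8 granulosa markers (1 called higher) was 3090 to 4078 and 3494 to 5561 CPM. That of 5 theca markers (1 called lower, Star) was 3210 to 4479 and 1881 to 3343 CPM. Star is also 1 of the 7 corpus luteum markers called lower, and its mean fell from 2127 to 452 CPM. Of the theca markers 3 had a positive and 2 a negative log2 fold change, with a median of 0.24. Of 4 adipocyte markers 1 was called higher, with sums of 16.0 to 82.0 and 34.0 to 292 CPM.

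None of 6 surface epithelium, 8 oviduct, 6 stromal, 6 macrophage, 4 lymphocyte or 4 red blood cell markers passed the adjusted threshold in edgeR's test, and each of these sums overlapped between the genotypes. At an unadjusted p under 0.05 edgeR gave 4 of these 34 genes, and DESeq2 called 2 after adjustment, 1 stromal and 1 oviduct marker. No marker of any list was at 0 in all 6 ovaries. The surface epithelium sum was 256 to 300 CPM in Bnc1+/+ and 289 to 369 CPM in Bnc1tr/tr ovaries. The oviduct sum was 37.2 to 151 CPM and 22.6 to 520 CPM, and its lowest value was in Bnc1tr/tr replicate 1, the ovary with the highest Galnt6. Galnt6 was higher in that ovary than in Bnc1tr/tr replicate 3, where the oviduct sum was 520 against 22.6 CPM. Ovgp1 gave 423 CPM of the 520. Pax8, the 1 oviduct marker without overlap, was at 1.49, 1.73 and 3.21 CPM in Bnc1tr/tr and 1.19, 0.423 and 0.448 CPM in Bnc1+/+ ovaries (edgeR adjusted p = 0.086). The part of oviduct RNA in the Galnt6 values was not tested.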

How the data were processed

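Total RNA was extracted with TRIzol, and single-end Ion Total RNA-Seq libraries were run on an Ion Proton sequencer. For the 6 ovary samples the authors deposited read counts per gene, not normalized. The submitters' processing notes name the mm10 and Sscrofa10.2 builds; the aligner, counter, annotation and strand setting are not given in the sources used here. Of 44788 genes listed, 31717 had at least 1 count and 19423 passed filterByExpr (minimum count 10). Counts were scaled with TMM and compared with edgeR 4.0.16 (estimateDisp, glmQLFit, glmQLFTest, R 4.3.3); tests were two-sided and p values were adjusted by Benjamini-Hochberg over all genes tested and a threshold of 0.05; the steps were tested on simulated data. Alternatives used other scaling and filters, DESeq2 1.42.0, limma 3.58.1 (voom) and fewer ovaries. Log2 CPM used a prior count of 2. Positions and lengths came from GRCm38 (GENCODE M21), promoters from RefSeq (GRCm38.p6). All 127 list genes matched a row, 2 of them by a RefSeq synonym (Galnt17 as Wbscr17, Adgre1 as Emr1). The members and lists were chosen with earlier results of these data known. The rule for genes named in the text took all members, every other O-glycan gene called, the gene of each such list with the highest mean CPM over the 6 ovaries, and the 5 genes closest in profile to Galnt6 with a mean of at least 1 CPM. Outside this rule the text names C1galt1c1, Gcnt2 and Gcnt3, chosen after their values were seen. It also names the marker genes Lhcgr, Star, Ovgp1 and Pax8, the targeted gene Bnc1, and the genes overlapping members, Galnt6os and Poc1b. Depth was 25247770 to 34406296 counts per ovary, at which 3 counts are 0.0906 to 0.115 CPM. CPM per kb used the summed exon length of each gene in GENCODE M21, which may differ from the annotation behind the counts; the longest coding transcript was used as an alternative chosen after seeing the data.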

Additional observations from a re-analysis of the deposited data

How the results depend on the processing

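The log2 fold changes of Galnt6, Galnt7, Galnt3, Galnt12, C1galt1 and Gcnt1 kept their sign in all 13 alternatives and moved by less than 1 SD between replicates; those of Galnt1 and Galnt2 moved by more with library size alone (-0.022 and -0.066), and that of Galnt4 changed sign. Of the 7 other O-glycan genes called, Xylt1 was called in all 13. The number of genes called, 1372, was 2420 with DESeq2, ranged from 320 to 1282 when 1 ovary was left out, and was 304 without both Bnc1+/+ replicate 1 and Bnc1tr/tr replicate 3. The 3 other O-glycan genes called higher became 1 when every ovary had to hold 10 counts or more, which removes Muc4 and Muc20, 1 without both of those ovaries, and 0 to 3 when 1 ovary was left out; edgeR called 0 without Bnc1+/+ replicate 4 or 7, where 3 had an unadjusted p under 0.05. The 4 called lower became 2 without both of those ovaries and 1 to 3 when 1 ovary was left out. DESeq2 called 3 higher and 6 lower. No paired analysis was possible because the genotypes share only replicate number 1. Galnt14 could be compared only where the filter let it through, since it had 16 counts or fewer in every ovary.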

Other observations

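Of the GCNT branching enzymes, Gcnt2, which makes I-type branches and was in none of the lists, was singled out after its values were seen. It was at 6.43, 4.59 and 6.31 CPM in Bnc1+/+ and 9.14, 10.1 and 9.90 CPM in Bnc1tr/tr ovaries. This is a rise of 0.75 on the log2 scale (SE 0.17, edgeR adjusted p = 0.040). All 3 Bnc1tr/tr values lay above every Bnc1+/+ value, as was so of 15% of all genes tested. Whether the Gcnt2 call holds in the other settings was not tested. The call of Muc5b, with a similar edgeR adjusted p of 0.038, was lost in 7 of those settings. Gcnt3, the mucin-type core 2 and core 4 enzyme, was counted 12, 2 and 5 times in Bnc1+/+ replicates 1, 4 and 7 and 5, 0 and 41 times in Bnc1tr/tr replicates 1, 2 and 3. Its highest count in each genotype was in the ovary with the highest oviduct marker sum of that genotype, 151 and 520 CPM. Gcnt3 too was named after its values were seen, and the part of oviduct RNA in its counts was not tested.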
